A study of Homo sapiens with 13 samples.

Results

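Knockdown of IRF4 for 4 days was compared between myeloma cell lines: H929 (2 arrays, labelled repeat 1 and repeat 2) and SKMM1 (1 array) were set against KMS12 (2 arrays, culture series 1332b and 2046). The arrays were chosen as those labelled exactly day 4, which are 5 of the 13 arrays in the series, and the KMS12 array of day 5 was left out. Each array was a spotted cDNA array (Lymphochip) on which a culture carrying an inducible short hairpin RNA against IRF4, labelled in Cy5, was hybridised with a culture of the same line carrying a control hairpin against luciferase (shluc), labelled in Cy3. All cultures on these 5 arrays had doxycycline at 20 ng/ml, which induces the hairpin. By the label numbers, H929, SKMM1 and the KMS12 2046 series carried IRF4 hairpin 2046, and the other KMS12 series carried 1332b. No untreated array of H929 or SKMM1 was analysed here, and SKMM1 has no replicate. Line, culture series and, in part, hairpin cannot be told apart. Whether the H929 repeats were grown separately is not in the labels, so their spread may be technical only. The p-values rest on the spread within groups of one line and day over all 13 arrays. These include KMS12 arrays of other days, and the KMS12 groups with several arrays mix culture series.

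IRF4 is a transcription factor of the interferon regulatory factor family. It is switched on as B cells become plasma cells, where it acts with other factors to maintain the secretory cell state, and myeloma, a cancer of plasma cells, depends on it across lines with different founding lesions. SKMM1 is known for a translocation that places IRF4 beside the immunoglobulin heavy chain locus, H929 for a translocation that activates NSD2 and FGFR3, and KMS12 for a translocation that activates cyclin D1. Every value below is a log2 ratio of the IRF4 hairpin culture over its control culture, so a value below 0 means less mRNA with the IRF4 hairpin. A difference between lines is a difference between such ratios, that is, between responses. It does not compare the amount of mRNA in the lines, and the plasma cell identity of the lines cannot be checked from ratios. A ratio also does not tell fewer cells with an mRNA from less of it per cell.

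IRF4 mRNA itself was lower with the hairpin on all 5 arrays and lowest in H929 and SKMM1. Its log2 ratio was -1.82 and -2.02 on the H929 arrays, -2.11 on the SKMM1 array, and -0.66 (series 1332b) and -0.75 (series 2046) on the KMS12 arrays. The IRF4 signal was thus 28.3% and 24.6% of control in H929, 23.2% in SKMM1, and 63.3% and 59.6% in KMS12. The arrays of the lines do not overlap, and both array features for IRF4 gave the same direction. The mean of H929 and SKMM1 stood 1.31 below KMS12 (difference -1.31, SE 0.27, limma adjusted p = 0.0923), which did not pass the threshold of 0.05. With the arrays quantile normalized or scaled to one spread, the difference was -0.79 or -0.75. The smaller loss of IRF4 in KMS12 runs alongside the differences from KMS12 described below, and its part in them was not tested. Between H929 and SKMM1 the IRF4 ratios differed by 0.18 (SE 0.35).

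No gene passed the adjusted threshold in any of the 4 comparisons between lines. The tests covered 3903 genes or unnamed features, of which 2434 were named genes, each with a value on all 5 arrays. With limma, 0 of 3903 (0%) had an adjusted p under 0.05 for H929 and SKMM1 against KMS12, 0 (0%) for H929 against KMS12, 0 (0%) for SKMM1 against KMS12 and 0 (0%) for H929 against SKMM1. The lowest adjusted p was 0.0842, 0.143, 0.0926 and 0.165 in turn. At an unadjusted p under 0.05, the first comparison gave 493 lower (12.6%) and 367 higher (9.4%), H929 alone 599 (15.3%) in either direction, SKMM1 alone 666 (17.1%), and H929 against SKMM1 185 (4.74%). A share of 5% is what this rule gives where no gene differs. These counts moved with the scaling and with single arrays. With quantile normalization or arrays scaled to one spread, SKMM1 alone gave 343 or 313 and H929 against SKMM1 64 or 51, and the scaled arrays gave 558 for the first comparison. Without H929 repeat 2, H929 alone gave 201 and the first comparison 544. Without the KMS12 1332b array these were 356 and 514.

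The count of 0 depended on which features were tested. Among the 2257 genes or features measured on all 13 arrays of the series, 135 passed the adjusted threshold for H929 and SKMM1 against KMS12, 85 of them lower and 50 higher in H929 and SKMM1, and 44 passed for SKMM1 alone. With the KMS12 array of day 5 added to the KMS12 side, 31 passed. An exact permutation test of 3 arrays against 2 cannot give a p below 0.1. The values below are therefore given as measured, and "lower" or "higher" says on which side the arrays stood.

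The ratios in H929 and SKMM1 ran together, while those in KMS12 tracked them little. Over the 3903 genes or features, the H929 repeats correlated with Pearson's r = 0.66 and Spearman's rho = 0.70, and with the SKMM1 array with r = 0.63 (repeat 1) and 0.68 (repeat 2). Correlations of these 3 arrays with the KMS12 arrays lay between r = 0.01 and 0.13. The KMS12 arrays correlated with each other at r = 0.09 and rho = 0.10 only, and they differ in hairpin. These correlations are across genes within pairs of arrays; genes are not independent replicates, and all arrays share the direction of the dyes. The spread of the ratios was also wider in H929 and SKMM1, with an SD of 0.48 and 0.59 in H929 and 0.67 in SKMM1 against 0.43 and 0.40 in KMS12. Genes or features at a ratio of 2-fold or more in either direction made up 3.36% and 9.33% in H929, 13.8% in SKMM1 and 2.95% and 2.38% in KMS12.

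**Figure D1:**
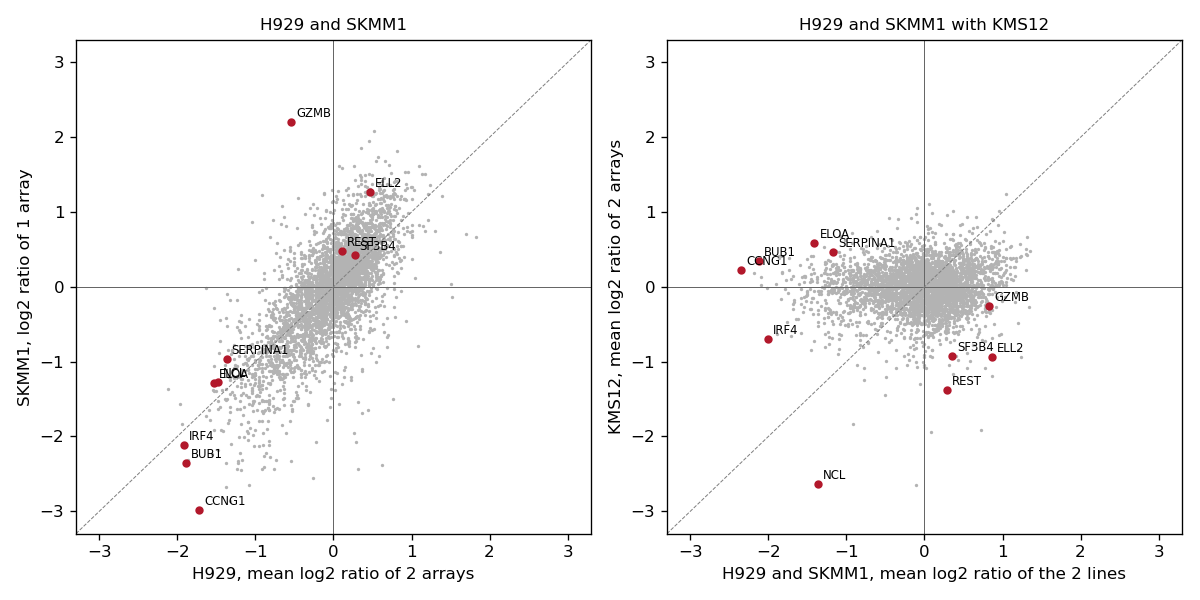
Log2 ratios of the IRF4 hairpin over the control hairpin at day 4 for the 3903 genes or features, with H929 (x axis, mean of 2 arrays) against SKMM1 (y axis, 1 array) on the left and the mean of H929 and SKMM1 (x axis) against KMS12 (y axis, mean of 2 arrays) on the right. Points are genes or features, red points are named genes, the dashed line marks equal ratios, and 1 feature lies beyond the axes; the left cloud is drawn out along the dashed line, while on the right the cloud is wide along the x axis and narrow along the y axis.

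Genes or features whose arrays do not overlap were also counted. If the 5 arrays were interchangeable, the share on each side would be 0.1. For 975 genes or features (25%) all 3 H929 and SKMM1 arrays stood below both KMS12 arrays, and for 814 (20.9%) they stood above. Among the 975, the ratio was below 0 on the H929 and SKMM1 arrays and above 0 on the KMS12 arrays for 327, and below 0 on all 5 arrays or above 0 on all 5 for 188. Among the 814, these counts were 255 and 107. The median difference over all genes or features was 0.01 and the median absolute difference 0.38.

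The genes with the smallest p on the lower side were SERPINA1, ELOA, MAP3K4, PHIP, SNX5, BHLHE40, MCUB and SDC3, and on the higher side REST, SF3B4, THOP1, KDELR1, U2AF2, ELL2, UCP2 and SLAMF7. They were picked among genes whose arrays do not overlap, so that trait of all 16 follows from the rule. None passed the adjusted threshold (limma adjusted p between 0.0842 and 0.0923). Of these 16 genes, 15 were measured on all 13 arrays, and all 15 passed when only such features were tested. That test uses the same day 4 arrays that picked the genes, so it is not independent support. SERPINA1, which encodes the secreted protease inhibitor alpha-1 antitrypsin, read -1.27 and -1.48 in H929, -0.96 in SKMM1, and 0.55 and 0.38 in KMS12, a difference of -1.63 (SE 0.24). ELOA encodes elongin A, a transcription elongation factor. It read -1.42 and -1.65 in H929, -1.28 in SKMM1, and 0.68 and 0.49 in KMS12 (difference -1.99, SE 0.29), which is a response 3.98-fold lower than in KMS12. Both genes stood below control in each H929 and SKMM1 array and above control in each KMS12 array.

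The other genes on the lower side had the same arrangement or a KMS12 value close to 0. MAP3K4, a kinase upstream of p38 and JNK, read -0.86, -1.31 and -1.47 in H929 and SKMM1 and 0.39 and 0.28 in KMS12. The sorting nexin SNX5, which works in endosomal retrieval, read -0.90, -1.24 and -1.89 against 0.39 and 0.15. BHLHE40, a transcriptional repressor, read -0.77, -1.05 and -1.13 against 0.90 and 0.35, so that its KMS12 arrays were further above 0 than those of SERPINA1 on average. MCUB, a subunit that limits the mitochondrial calcium uniporter, had the smallest difference of the 8, -1.14 (SE 0.20). For the bromodomain protein PHIP the ratio was -1.68, -1.44 and -2.24 against 0.15 and -0.07, and for the cell surface proteoglycan SDC3 it was -0.82, -1.60 and -2.01 against 0.25 and -0.17. In these last 2 genes the KMS12 arrays lay on either side of 0.

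On the higher side, the KMS12 mean lay further from 0 than the mean of H929 and SKMM1 for most genes. For THOP1, ELL2 and U2AF2 the distances were close. The reverse clearly held only for UCP2, with a mean of 0.92 in H929 and SKMM1 and -0.27 in KMS12. REST, the repressor of neuronal genes, read -0.01 and 0.23 in H929 and 0.48 in SKMM1, but -1.18 and -1.58 in KMS12 (difference 1.67, SE 0.28). SLAMF7, a surface glycoprotein of plasma cells and a myeloma antibody target, read -0.02, 0.27 and -0.14 against -1.02 and -1.07 (difference 1.04, SE 0.22), and both its features gave the same direction. KDELR1, which returns escaped chaperones to the endoplasmic reticulum, read -0.07, 0.18 and 0.15 against -1.03 and -0.86. All 3 genes were below control on both KMS12 arrays, and on the other arrays they lay between -0.14 and 0.48. The splicing factors SF3B4 and U2AF2, both of which act at the branch point and 3' splice site, stood above control in H929 and SKMM1 and below it in KMS12: SF3B4 read 0.11, 0.43 and 0.42 against -0.94 and -0.90, and U2AF2 read 0.36, 0.49 and 0.47 against -0.57 and -0.49.

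ELL2, an elongation factor that plasma cells use to make secreted immunoglobulin mRNA, read 0.43 and 0.51 in H929, 1.27 in SKMM1, and -0.58 and -1.29 in KMS12 (difference 1.81, SE 0.38). THOP1, a cytosolic peptidase, read 0.87, 0.83 and 0.34 against -0.72 and -0.42. UCP2, a carrier of the mitochondrial inner membrane, read 0.92, 0.86 and 0.95 against -0.58 and 0.04. The 3 readings for UCP2 in H929 and SKMM1 lie close together, whereas its KMS12 arrays are further apart.

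**Figure D2:**
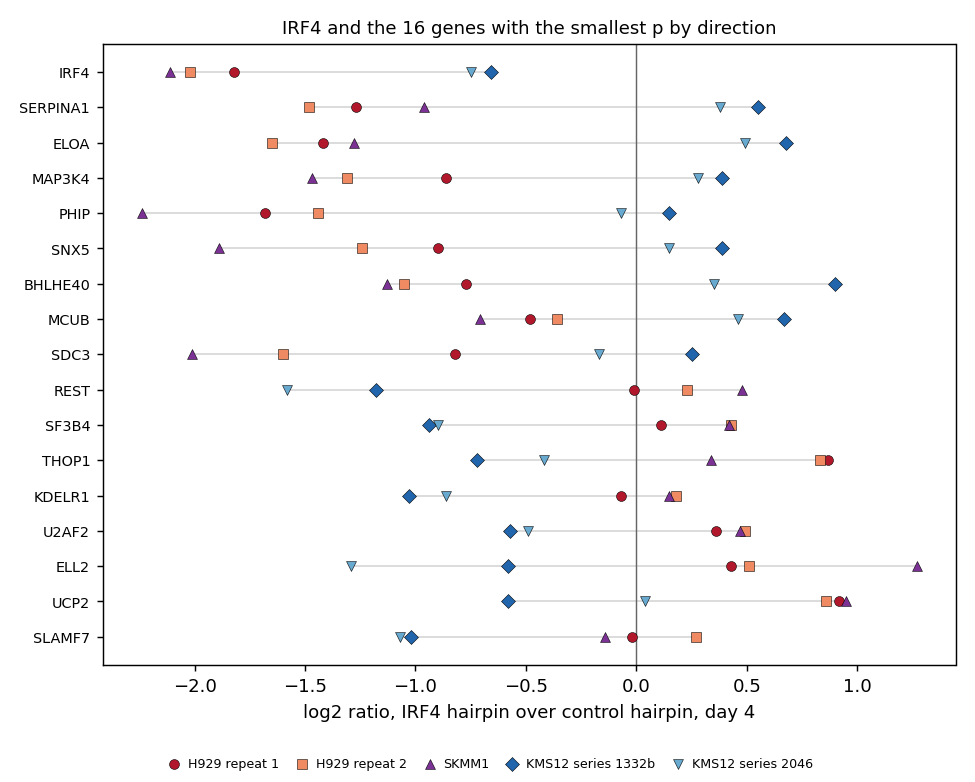
Log2 ratio (x axis) of IRF4 and the 16 genes named above (rows) on each of the 5 day 4 arrays, 1 symbol per array, with a grey line from the lowest to the highest array. In every row the 3 H929 and SKMM1 symbols (red, orange and purple) lie on one side of both KMS12 symbols (blue). For the 16 genes the rule that named them required this.

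Gene lists were read by their members' counts and median difference, beside the 3903 genes or features as a whole. For these the median was 0.01, with 493 (12.6%) lower and 367 (9.4%) higher at an unadjusted p under 0.05. Their arrays did not overlap for 25% on the lower and 20.9% on the higher side. A list count near these shares does not set that list apart. None of the lists has a test of its own. Of the 29 lists, G2/M and mitosis, the longest as measured, held the most genes lower in H929 and SKMM1. Of its 29 measured genes 12 were lower and 2 higher at an unadjusted p under 0.05, the arrays did not overlap in 15 on the lower and 3 on the higher side, and the median difference was -0.42. The list's median ratio was -0.37 and -0.68 in H929, -0.60 in SKMM1, and 0.04 and -0.10 in KMS12. So the KMS12 medians were close to 0, and the 3 others below them.

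BUB1, a kinase of the spindle checkpoint, had the largest difference of the list. It read -1.38 and -2.40 in H929, -2.35 in SKMM1, and 0.42 and 0.28 in KMS12 (difference -2.48, limma adjusted p = 0.0923). CDK1, the kinase that drives entry into mitosis, read -1.06, -1.41 and -2.44 against 0.05 and -0.37. TOP2A, which untangles DNA for chromosome segregation, read -1.08, -1.22 and -2.01 against 0.01 and -0.08, with both features in the same direction. CCNB1, cyclin B1, read -0.48, -0.80 and -0.86 against 0.06 and 0.13, and the CDK subunit CKS1B -0.88, -0.89 and -0.83 against 0.39 and 0.10. These 5 genes were below control on every H929 and SKMM1 array and within 0.50 of control on every KMS12 array.

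Not every mitotic gene had that arrangement. PLK1, a mitotic kinase, read -0.13, 0.15 and 0.07 in H929 and SKMM1 and -0.83 and -0.49 in KMS12 (difference 0.70), and the phosphatase CDC25B, which activates CDK1, read -0.15, 0.11 and -0.20 against -1.16 and -0.49 (difference 0.71). Both thus stood lower in KMS12. MKI67, a proliferation marker, overlapped between the lines.

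**Figure D3:**
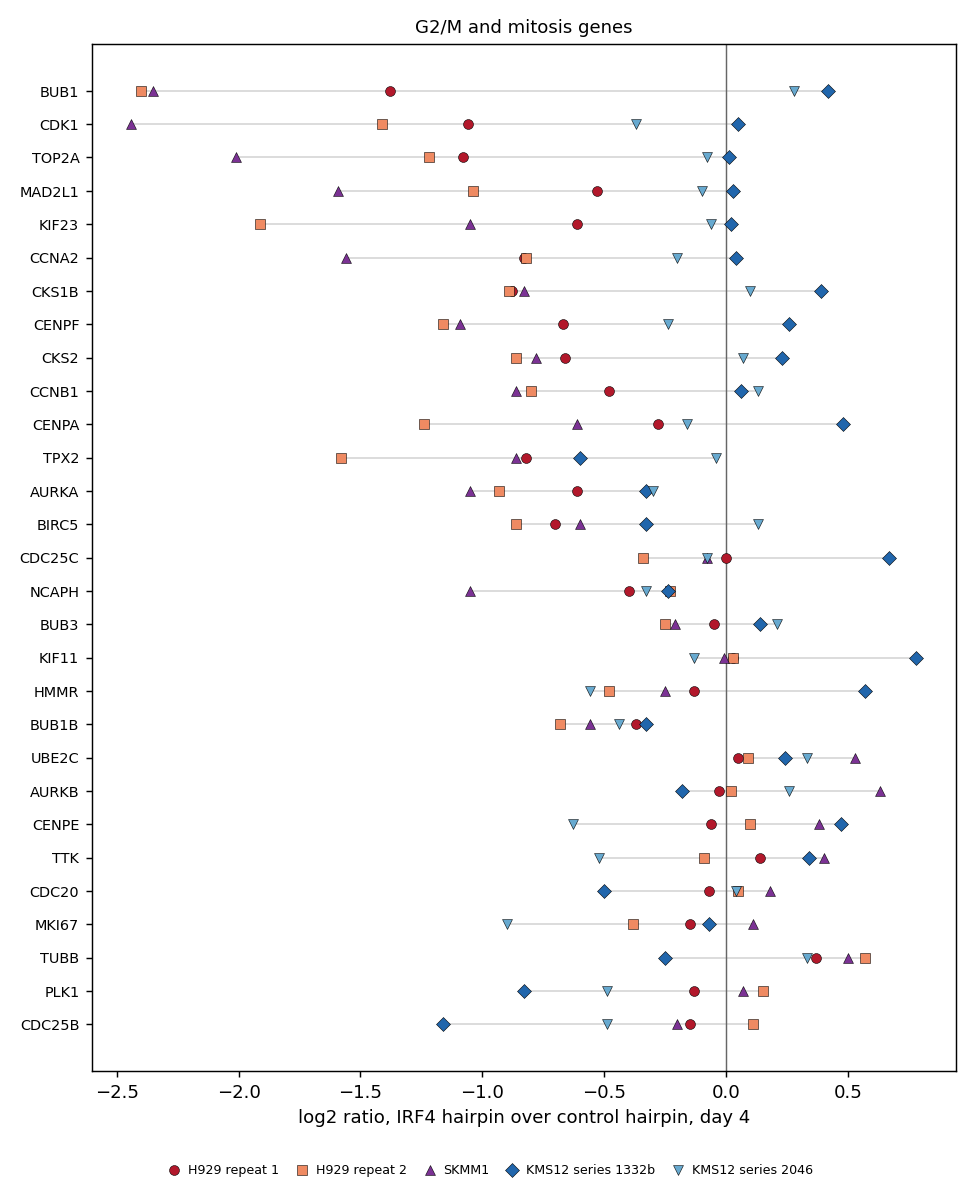
Log2 ratio (x axis) of the 29 measured G2/M and mitosis genes (rows, ordered by the difference of H929 and SKMM1 from KMS12) on each of the 5 day 4 arrays, 1 symbol per array. Upper rows, from BUB1 to CCNB1, have the H929 and SKMM1 symbols well to the left of the KMS12 symbols, and in the lowest 2 rows, PLK1 and CDC25B, the KMS12 symbols lie furthest left.

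Of 22 measured genes of G1/S and DNA replication, 6 were lower and 1 higher in H929 and SKMM1 at an unadjusted p under 0.05. The shares of all genes or features were 12.6% and 9.4%. The median difference of the list was -0.37 (-0.23 with quantile normalization). In 12 the arrays did not overlap on the lower side and in 4 on the higher side, beside 25% and 20.9% of all genes or features. The DNA primase subunit PRIM1 read -1.04, -1.97 and -1.39 in H929 and SKMM1 against 0.23 and -0.02 in KMS12. PCNA, the sliding clamp of replication, read -1.05, -1.74 and -1.05 against 0.04 and 0.02, and the ribonucleotide reductase subunit RRM1 -0.89, -1.12 and -1.23 against 0.49 and 0.04. All of these H929 and SKMM1 readings lie below control, while the KMS12 readings are at or above it but for 1. The 4 genes on the higher side were CDT1, which licenses replication origins, the helicase subunits MCM2 and MCM4, and CCNE1, cyclin E1, with differences of 0.77, 0.53, 0.28 and 0.39. CDT1, the 1 gene of these at an unadjusted p under 0.05, read 0.58, 0.58 and 0.50 against -0.48 and 0.02.

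Among p53 targets and quiescence genes, 6 of 15 were lower and 1 higher at an unadjusted p under 0.05. Over all genes or features the shares were 12.6% and 9.4%. The list had a median difference of -0.52 (-0.30 without the SKMM1 array). CCNG1, cyclin G1, had the largest difference of any listed gene on the lower side at -2.57 (limma adjusted p = 0.0852): it read -1.38 and -2.06 in H929, -2.99 in SKMM1, and 0.35 and 0.08 in KMS12. TXNIP, an inhibitor of thioredoxin and of glucose uptake, read -0.68, -1.03 and -0.92 against 0.27 and 0.35, and its 4 features had the same sign. RBL2, a retinoblastoma family protein that restrains the cell cycle, read -0.64, -1.17 and -1.36 against 0.08 and -0.08. CDKN1B, an inhibitor of cyclin-dependent kinases, read -0.38, -1.01 and -0.93 against 0.29 and 0.01. The genes of this list that stood lower include brakes of the cell cycle as well as a p53 feedback phosphatase, PPM1D (difference -0.65), and GADD45B, a stress gene, stood higher (0.68). XPC also stood lower (-0.56). For the p53 targets CDKN1A, MDM2 and DDB2 the arrays overlapped, with differences of 0.14, 0.65 and -0.21. The p53 targets thus had no common direction.

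Genes of plasma cell identity stood on both sides. Of 15 measured, 4 were lower and 3 higher at an unadjusted p under 0.05, beside 12.6% and 9.4% of all genes or features. The median difference was -0.05. That median changed sign with quantile normalization (0.12), with arrays scaled to one spread (0.08) and without SKMM1 (0.03). Besides ELL2 and SLAMF7, the kinase PIM2 stood higher in H929 and SKMM1, at -0.26, 0.16 and -0.37 against -1.03 and -0.76. On the lower side, the immunoglobulin joining chain JCHAIN read -0.73, -1.46 and -1.81 against 1.22 and -0.40. Its KMS12 arrays are further apart from each other than the SKMM1 array is from either H929 array. IL6ST, the shared signalling receptor of interleukin 6, read -0.50, -0.93 and -0.60 against 0.67 and -0.12. XBP1, the transcription factor of the secretory programme, read -0.80, -0.94 and -0.78 against -0.30 and 0.38. PRDM1, the repressor that establishes the plasma cell fate, read -1.0, -0.46 and -1.62 against -0.62 and -0.39. It was below control on all 5 arrays, and 1 H929 array overlapped with KMS12. TNFRSF17, the BCMA receptor, was below control on all 5 arrays as well (-0.67, -0.63 and -1.01 against -0.50 and -1.06), and SDC1 was within 0.35 of control on each array.

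Of 16 measured folding genes of the endoplasmic reticulum, 3 were lower and 1 higher in H929 and SKMM1 at an unadjusted p under 0.05. The shares of all genes or features were 12.6% and 9.4%. Differences were below 0 for 13 of the 16, beside 49.5% of all genes or features tested, and the median difference was -0.38 (-0.24 with quantile normalization). The arrays did not overlap for 9 on the lower and 1 on the higher side, beside 25% and 20.9% of all genes or features. DNAJB9, a co-chaperone induced by the unfolded protein response, read -0.77, -0.54 and -1.50 against 1.13 and 0.24 (difference -1.76, limma adjusted p = 0.0852). The chaperone HSP90B1 read -1.61, -2.27 and -1.83 against -0.34 and -0.91, and HSPA5, also known as BiP, read -0.97, -1.66 and -1.25 against -0.76 and -0.50. Both chaperones were thus below control in all lines and further below it in H929 and SKMM1. SEL1L, which serves the degradation of misfolded proteins, was on the other side at 0.86, 0.75 and 0.47 against -0.34 and -0.52.

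**Figure D4:**
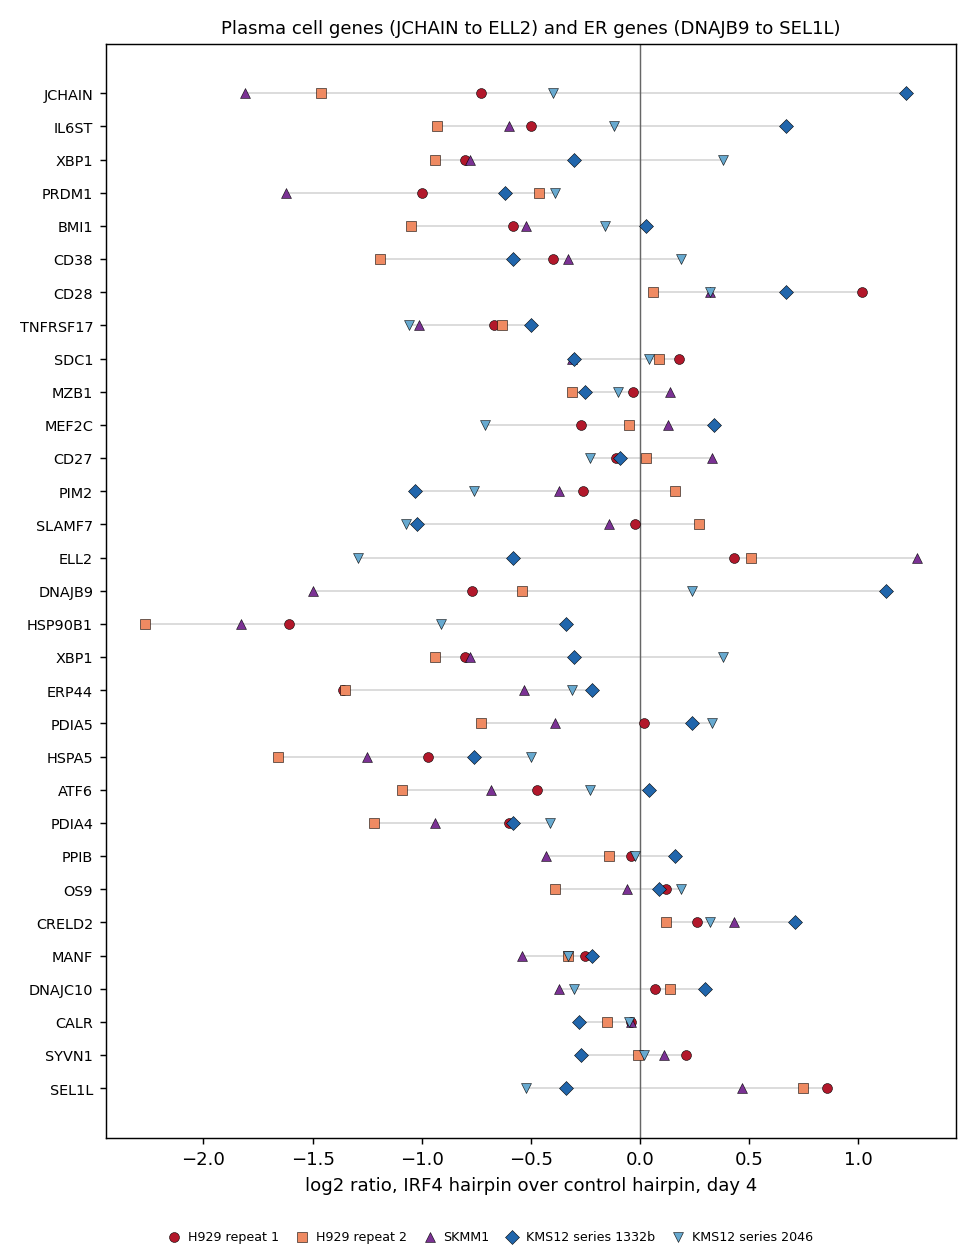
Log2 ratio (x axis) of the 15 measured plasma cell identity genes (upper rows, JCHAIN to ELL2) and the 16 measured endoplasmic reticulum folding genes (lower rows, DNAJB9 to SEL1L) on each of the 5 day 4 arrays, 1 symbol per array; XBP1 is in both lists. Within the plasma cell genes the H929 and SKMM1 symbols lie left of the KMS12 symbols in rows such as IL6ST and XBP1 and right of them for PIM2, SLAMF7 and ELL2.

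Secretory transport genes split both ways, with a median difference of -0.04. At an unadjusted p under 0.05, 4 of 17 were lower and 3 higher, beside 12.6% and 9.4% of all genes or features. SSR1, a subunit of the translocon-associated complex, read -0.87, -1.05 and -1.55 against 0.34 and -0.19, and the cargo receptor LMAN1 read -1.70, -2.23 and -1.56 against -0.27 and -0.67. SEC61A1, the channel of the translocon itself, read -0.12, 0.15 and -0.04 against -0.75 and -0.84, and the vesicle protein TMED10 0.30, 0.43 and 0.25 against -0.25 and -0.48. The genes on the higher side were near or above control in H929 and SKMM1.

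Of 12 measured oxidative phosphorylation genes, 9 differences were below 0, 3 of them at an unadjusted p under 0.05 and none higher, with a median of -0.48. The median was -0.19 without the SKMM1 array and -0.24 with quantile normalization, and 49.5% of all genes or features tested had a difference below 0. UQCRB, a complex III subunit, read -0.45, -1.0 and -1.16 against 0.33 and 0.14, and both its features had the same sign. At an unadjusted p under 0.05, 12.6% of all genes or features were lower and 9.4% higher. By that rule 3 of 11 citric acid cycle genes were lower and 1 higher. Among the lower was DLD, a shared dehydrogenase subunit, at -1.18, -1.48 and -1.21 against 0.15 and -0.11. In glycolysis 2 of 17 were lower and 3 higher by the same rule, and the lower count was close to the share over all. ALDOA (aldolase) read -0.03, 0.46 and 0.40 against -0.70 and -0.44, and LDHA, lactate dehydrogenase A, -0.95, -1.53 and -1.33 against -0.53 and -0.03. SQLE, an enzyme of sterol synthesis, read -0.96, -1.73 and -1.78 against -0.49 and -0.19 and was below control on every array.

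Growth genes linked to MYC stood on both sides. Of 14 measured, 2 were lower and 4 higher at an unadjusted p under 0.05, beside 12.6% and 9.4% of all genes or features. The arrays did not overlap for 3 on the lower and 8 on the higher side, beside 25% and 20.9% of all. The counts on the lower side were thus close to the shares over all. The median difference was 0.30 (0.15 without the KMS12 1332b array). NOP2, a nucleolar methyltransferase for ribosomal RNA, read 0.46, 0.39 and 0.55 against -0.51 and -0.17, with 3 features of the same sign. CAD, the first enzyme of pyrimidine synthesis, read 0.88, 0.65 and 0.89 against -0.55 and 0.36. EIF4E, the cap-binding translation factor, was lower, at -1.04, -1.80 and -1.93 against -0.15 and -0.25. MYC itself read -0.43, -1.15 and -1.02 against -0.45 and 0.00 (difference -0.68, limma unadjusted p = 0.0804), so its arrays overlap. NCL, nucleolin, was far below control on all 5 arrays, and more so in KMS12 (-2.66 and -2.62) than in H929 (-1.39 and -1.57) and SKMM1 (-1.27).

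Amino acid response genes, the targets of ATF4, had 5 lower and 1 higher of 20 measured at an unadjusted p under 0.05. Over all genes or features the shares were 12.6% and 9.4%. The stress protein NUPR1 read -1.44, -0.96 and -1.63 against 0.14 and 0.21, and the mitochondrial folate enzyme MTHFD2 -1.13, -2.02 and -1.78 against -0.08 and -0.38. CBS, which makes cystathionine, stood higher, at -0.10, 0.35 and -0.15 against -0.78 and -1.04. Among heat shock genes, HSPA1A read -0.09, 0.27 and 0.56 against -0.64 and -1.44, with 4 features of the same sign. It was the only 1 of 7 at an unadjusted p under 0.05.

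**Figure D5:**
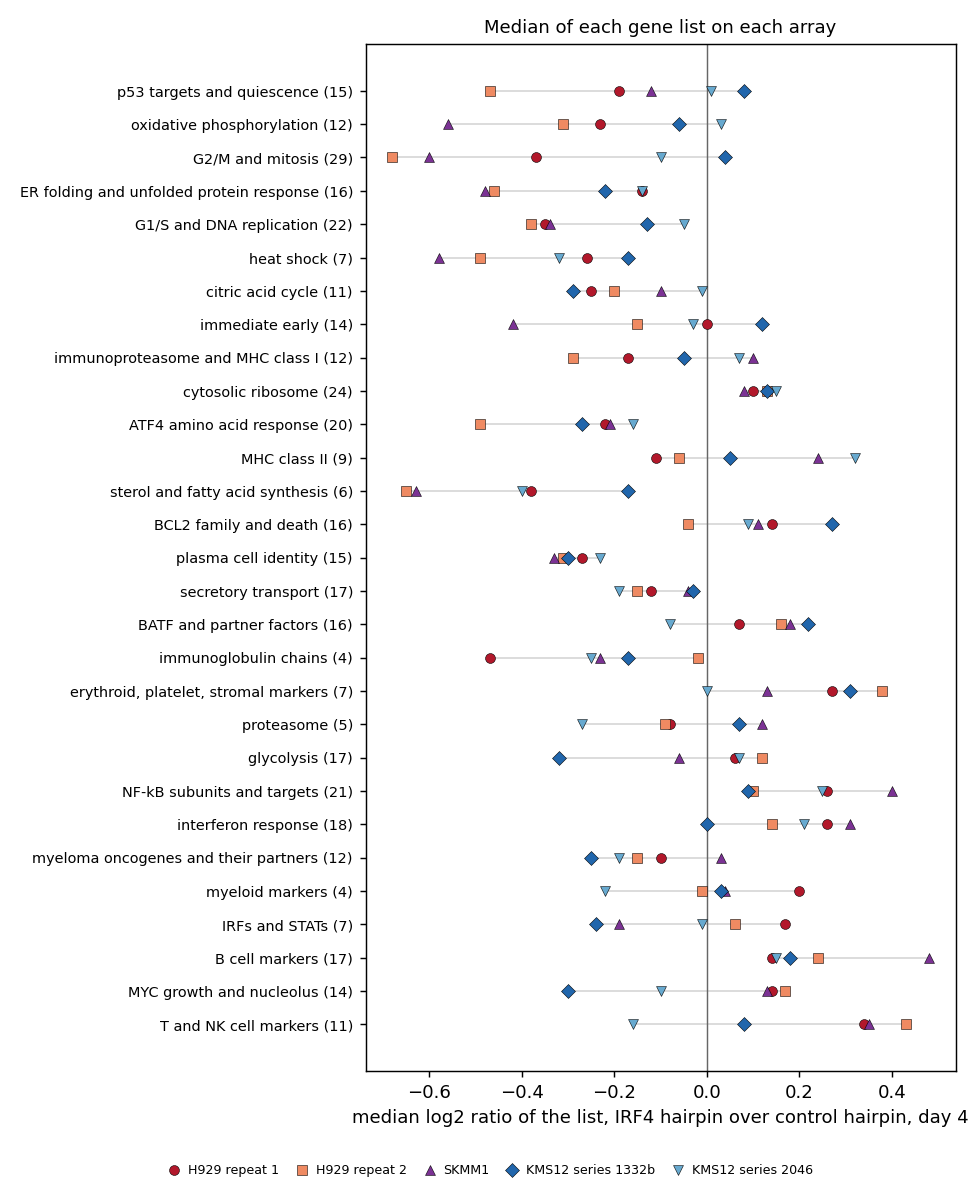
Median log2 ratio (x axis) of the measured members of each of the 29 gene lists (rows, number of measured members in parentheses, ordered by the median difference of H929 and SKMM1 from KMS12) on each of the 5 day 4 arrays, 1 symbol per array. For the p53, oxidative phosphorylation, G2/M and G1/S lists the 3 H929 and SKMM1 symbols lie left of both KMS12 symbols, and for the MYC and the T and NK cell lists they lie right of both.

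Antigen presentation and immune signalling genes had no common direction. B2M, the light chain of MHC class I, read -0.78, -1.54 and -1.42 against 0.82 and 0.24, a difference of -1.82, while the class I genes HLA-B, HLA-E and HLA-G had differences of -0.42, -0.31 and 0.46 and none of these had an unadjusted p under 0.05. PSMB9, an immunoproteasome subunit, read 0.38, 0.44 and 1.35 against -0.22 and 0.15. No MHC class II gene of 9 had an unadjusted p under 0.05. The chemokine CCL3 read -0.62, -0.89 and -1.14 against 0.49 and 0.52, and CD40, a receptor of B cell activation, read 0.78, 0.73 and 1.22 against -0.41 and 0.50. IRF3 and STAT3 stood higher by 0.57 and 0.70. The interferon response list had 2 higher and none lower of 18 at an unadjusted p under 0.05, beside 9.4% and 12.6% of all genes or features. In that list PML read 0.48, 0.30 and 0.80 against -0.09 and -0.03.

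Survival genes and early response genes included MCL1 and SGK1. MCL1, a survival protein on which myeloma cells rely, read -0.93, -1.62 and -0.78 against -0.28 and 0.07 (difference -0.93), and all 5 of its features had the same sign. BAK1, a pore-forming death effector, read 0.05, 0.11 and 0.32 against -1.0 and -0.26. IER5 read -0.21, -0.27 and -0.46 against 0.78 and 0.80. SGK1, a growth factor-responsive kinase, read 0.41, 0.26 and -0.53 against 0.80 and 1.30, so the H929 and KMS12 readings were all above control and the SKMM1 reading below it. TCF4, an E protein partner of B lineage factors, spread widely, at -0.52, -1.65 and -2.65 against 0.66 and 0.12 (difference -2.26).

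Among 24 measured cytosolic ribosome genes, 4 were lower and none higher at an unadjusted p under 0.05. Over all genes or features the shares were 12.6% and 9.4%. RPS3A read -1.07, -1.34 and -2.22 against 0.07 and 0.12 (difference -1.81), with 3 features of the same sign. The list's median ratio was between 0.08 and 0.15 on all 5 arrays, while RPS3A was below control in H929 and SKMM1. These genes have near-identical pseudogene copies, which a cDNA feature may not tell apart.

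Markers of other cell types were read as a check on the cultures. T and NK cell markers had the highest median difference of any list, 0.51, with 3 of 11 higher and none lower at an unadjusted p under 0.05. Of all genes or features, 9.4% were higher and 12.6% lower. CD3D read 0.34, 0.46 and 0.67 against -0.25 and -0.22, and ZAP70 0.22, 0.66 and 0.74 against -0.08 and -0.02. The third of these genes was GZMB, which was high on the SKMM1 array only (2.21) and below control in H929 (-0.71 and -0.38) as in KMS12 (-0.06 and -0.45). LCK, GNLY and LAT had differences of -0.08, -0.03 and -0.02. For GNLY this averages 1.14 and 1.02 in H929 with -0.79 in SKMM1, against 0.52 and -0.16 in KMS12. The KMS12 readings of LCK were -0.34 and 0.92. Markers of B cells at earlier stages had a median difference of 0.29 (0.18 without the KMS12 1332b array). Of 17 measured, 3 were higher and none lower, beside 9.4% and 12.6% of all genes or features. Among them BTK read 0.54, -0.21 and 1.30 against -0.11 and -3.70, so its difference of 2.64 rests on the KMS12 2046 array. Myeloid markers (4 measured) had a median of 0.23, and erythroid, platelet and stromal markers (7 measured) one of 0.03. The list medians on single arrays ran from -0.16 to 0.43 for T and NK markers and from 0.14 to 0.48 for B cell markers. A ratio gives no level, so whether these markers were at background was not tested, nor was their part in the other differences.

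Each line was also set against KMS12 by itself. In H929, H1-2, a linker histone, joined the genes named above on the lower side, at -0.50 and -0.50 against 0.96 and 0.78 in KMS12 (difference -1.37, limma adjusted p = 0.181), while SKMM1 read 0.29. In SKMM1, P4HA1, a collagen prolyl hydroxylase, read -2.43 against 0.07 and -0.42 (difference -2.25), PRNP, the prion protein, -1.53 against 0.12 and 0.14, and BNIP2 -2.43 against 0.67 and -0.09. On the higher side of SKMM1 were GZMB (2.21 against -0.06 and -0.45), PSMB9 and MANEA, a Golgi mannosidase (1.95 against 0.17 and -1.13). The differences of SKMM1 rest on 1 array, whose spread is assumed to be that of the other groups. Because both comparisons use the same KMS12 arrays, they share whatever error those arrays carry.

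Between H929 and SKMM1, the 185 genes or features at an unadjusted p under 0.05 (4.74%) were close to the share of 5% named above and fewer under other scalings. GZMB, granzyme B, a protease best known from cytotoxic lymphocytes, read -0.71 and -0.38 in H929 and 2.21 in SKMM1, a difference of -2.75 (SE 0.37). RARG, a retinoic acid receptor, read 0.50 and 0.14 in H929 and -2.43 in SKMM1 (difference 2.74, SE 0.50, limma adjusted p = 0.571). EVI2B, a leukocyte surface protein, read 0.83 and 0.69 against -1.50, and PDE7A, a cyclic AMP phosphodiesterase, -1.55 and -0.56 against 0.87. These 4 genes had opposite signs in H929 and SKMM1. BMP6, a secreted growth factor, was below control in both, at -0.66 and -1.13 in H929 and -2.26 in SKMM1, with 3 features of the same sign, and in KMS12 it read -0.56 and -0.68. P4HA1 was likewise below control in both and lower in SKMM1 by 1.52. PTPRK and ACTL6A were near or below control in H929 and above it in SKMM1, with differences of -1.12 and -1.19.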

How the data were processed

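The authors deposited 1 table of log2 ratios (Cy5 IRF4 hairpin over Cy3 control) for 15246 features. The base is not stated and was taken as log2; background correction, normalization and the handling of blank spots are not stated in the sources used here. Trizol RNA was labelled by reverse transcription, per the labels' protocols. There were no dye swaps, so gene-specific dye effects cancel only between arrays. Measured features per array numbered 8408 to 13216 at day 4. Platform annotation gave 10169 features 1 symbol, 4 several and 5073 none; 10128 matched the RefSeq gene table, while the symbol of 41 was left as annotated.

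Features with a value on all 5 day 4 arrays (5278) were kept, arrays centred on their median (shifts of -0.076 to -0.015) and features of a gene averaged. limma 3.58.1 in R 4.3.3 (lmFit, eBayes) was fitted to all 13 arrays as 8 group means, with Benjamini-Hochberg adjustment, two-sided, threshold 0.05. H929 (mean) and SKMM1 were weighted equally against the KMS12 mean. The script was tested on simulated data. The cell lines, the gene lists and the rules were chosen with earlier results of these data known. Named were IRF4, the 8 genes with the smallest p per direction whose arrays do not overlap (since fewer than 5 passed), up to 5 per direction for H929 or SKMM1 alone and 4 for H929 against SKMM1, and 3 members of each list with the smallest p plus 1 of the opposite direction. Other listed genes, such as CDK1, MYC and NCL, were named after their values were seen. Alternatives covered centring, scaling, filters, arrays in the fit, the KMS12 comparator, the hairpin, the prior, a random block and leaving out each array. The number of arrays limits the precision.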

Additional observations from a re-analysis of the deposited data

Results flagged for a closer look

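For 582 of the 3903 genes or features tested (14.9%), the ratio lay on one side of 0 on all 3 H929 and SKMM1 arrays and on the other side on both KMS12 arrays. Of the 149 genes named by rule or in the report, 41 had this arrangement. Most of the 149 were named by these same differences or after their values were seen, so the count cannot be compared with the 14.9%. None of the 41 differences passed the adjusted threshold in the main comparison, and the opposite signs themselves were not tested. Some, such as SERPINA1 and ELOA, passed with the KMS12 array of day 5 added or with only features measured on all 13 arrays. As differences on the log2 scale, those lower in H929 and SKMM1 and above 0 in KMS12 were SERPINA1 (-1.63), ELOA (-1.99), MAP3K4 (-1.61), SNX5 (-1.75), BHLHE40 (-1.64), MCUB (-1.14), PRNP (-1.15), PCNA (-1.25), BUB1 (-2.48), CKS1B (-1.10), CCNB1 (-0.84), UQCRB (-1.17), DNAJB9 (-1.76), NUPR1 (-1.59), B2M (-1.82), RPS3A (-1.81), RPS25 (-1.03), RPS18 (-0.75), CCL3 (-1.46), CCNG1 (-2.57), TXNIP (-1.20), IER5 (-1.14), TCF4 (-2.26), CDKN1B (-0.97) and RRM1 (-1.38).

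Those above 0 in H929 and SKMM1 and below 0 in KMS12 were SF3B4 (1.27), THOP1 (1.17), U2AF2 (0.98), ELL2 (1.81), MAF (1.13), NOP2 (0.83), GPI (0.95), SEL1L (1.07), PSMB6 (0.43), PML (0.65), BAK1 (0.83), CD3D (0.77), ZAP70 (0.64), TYROBP (0.87), CCNE1 (0.39) and TMED10 (0.67). Between H929 and SKMM1, 16 of the 149 genes had opposite signs, beside 510 of all 3903 (13.1%), with the difference of H929 from SKMM1 being H1-2 (-0.79), GZMB (-2.75), PDE7A (-1.92), PTPRK (-1.12), ACTL6A (-1.19), RARG (2.74), EVI2B (2.26), RPL8 (0.49), STAT5B (0.35), CASP4 (-0.38), SGK1 (0.86), DUSP5 (0.87), GNLY (1.87), HLA-G (-0.45), MKI67 (-0.38) and SDC1 (0.45). These differences between H929 and SKMM1 passed no adjusted test, the opposite signs were not tested, and SKMM1 has 1 array. Some of the 149 were named by this comparison, so their count cannot be set against the 13.1% either. Groups of 3 or fewer arrays were not searched for outlying arrays.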

How the results depend on the processing

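The count of genes past the adjusted threshold for H929 and SKMM1 against KMS12 was 0 in most alternatives. It rose to 135 of 2257 with features measured on all 13 arrays, and to 31 with the KMS12 array of day 5 added. For H929 the same alternatives gave 4 and 1. For SKMM1 they gave 44 with features on all 13 arrays, and quantile normalization gave 1. H929 against SKMM1 gave 1 with features on all 13 arrays. The first of these alternatives tests fewer genes; otherwise the cause was not tested. Leaving out each array in turn gave 0 to 2 for both lines and for H929 against KMS12 (2 without H929 repeat 2, 1 without KMS12 series 1332b), and 0 in the other comparisons. Without an H929 or a KMS12 array, the array left in that line is assumed to vary like the other groups. The alternative with hairpin 2046 in every line is such a fit, as it drops the KMS12 1332b array. Its differences were 4.43 for BTK and 4.54 for TNFRSF1B, against 2.64 and 2.54 with both KMS12 arrays. Both were thus larger against the KMS12 2046 array alone, so the KMS12 arrays lay apart for both genes. BTK read -3.70 on the remaining KMS12 array and -0.11 on the dropped one.

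Among named genes, 2327 alternative values kept their direction and side of the threshold, 57 passed the threshold and 14 changed sign. Most sign changes were of values near 0: without KMS12 series 2046, IGLL1 (0.06), LCK (0.55), CD68 (-0.10) and SCD (0.03), whose ranges with an array left out were -0.41 to 0.06, -0.71 to 0.55, -0.10 to 0.52 and -0.34 to 0.03; SCD with quantile normalization (0.30) and with arrays scaled to one spread (0.09); SREBF2 with scaled arrays (0), with centring within classes of features (-0.03), with the day 5 array added (-0.18), without H929 repeat 2 (0) and without SKMM1 (-0.06); HLA-DRA with at least 1 value in each line (-0.27) and without SKMM1 (-0.02, to 0.75 with other arrays left out); and GZMB without SKMM1 (-0.29, to 1.28 with other arrays left out). Of list medians, 409 values moved by less than their spread and 113 by more. The G2/M median stayed between -0.58 and -0.31, G1/S between -0.43 and -0.23, p53 targets between -0.64 and -0.30, the endoplasmic reticulum list between -0.47 and -0.24, MYC growth between 0.15 and 0.44, and T and NK markers between 0.35 and 0.61. The plasma cell median ran from -0.24 to 0.12 and the interferon median from -0.03 to 0.41. Testing each feature by itself gave counts only. No paired analysis was possible because the groups share no replicate numbers in the labels. The absence of intensities leaves signal over background unknown.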
